A study of Mus musculus with 6 samples.

Results

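Glycolysis and the response to low oxygen were followed through 32 genes fixed by name, read across 6 libraries of macrophages grown from mouse bone marrow and measured by RNA sequencing. All 32 had a row among the 17904 named genes of the table, and 31 reached 1 FPKM (a read count corrected for transcript length and sequencing depth) in at least 1 library. Of these 31, 22 encode enzymes and transporters of glucose, pyruvate and lactate, and 9 encode hypoxia genes, meaning regulators of the hypoxia-inducible factor HIF or genes it is known to induce. Adm, the gene for the vasodilator peptide adrenomedullin, stayed at 0.42 FPKM or less and is not described further. The member closest to the limit on the other side was Pfkm, with a highest value of 7.35 FPKM.

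The macrophages came from the marrow of C57BL/6 mice at 8 weeks of age and were grown for 5 days with M-CSF, the growth factor that turns marrow cells into macrophages. They were wild type (WT) or Setd2-KO, abbreviated KO. Setd2 is the histone methyltransferase that places trimethylation on lysine 36 of histone H3 along transcribed genes. The labels give neither the allele nor the way it was deleted. Lipopolysaccharide (LPS), a molecule of the outer membrane of bacteria, was given at 100 ng/ml for 12 or 24 h, and cells without it are called 0 h. There was 1 library for each of these 6 groups, so values carry no replicate error, differences have no replicate check, and no p-value is given.

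Glycolysis splits glucose into pyruvate through a chain of enzymes, and lactate dehydrogenase and the monocarboxylate carriers dispose of the pyruvate as lactate. Macrophages activated by LPS are known to rely on this chain, and HIF-1, a transcription factor made of an oxygen-regulated alpha subunit and a constant partner, is known to induce most of its genes. Prolyl hydroxylases of the EGLN family mark the alpha subunit for destruction when oxygen is present, and EGLN3 is itself a HIF target.

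The targeted gene and the cell identity were read first. Setd2 lay between 7.51 and 8.68 FPKM in the WT libraries and at 9.96, 9.16 and 5.11 FPKM at 0, 12 and 24 h in the libraries labelled KO. A gene-level value would keep reads from any undeleted exons, and single exons were not read here. These values thus check neither label, and which libraries are KO is taken from the labels alone. All 8 macrophage markers were measured, but Lyz2 was at 3903 to 9015 FPKM in WT and at 17.7 to 54.5 in KO. At 24 h Itgam (-1.24) and Mertk (-1.01) were also called lower in KO, and the median of the 8 markers was -0.85 (-0.71 with a trend over transcript length, described below, removed). Csf1r (-0.89) and Adgre1 (-0.81) were below WT at that time without a call. Fcgr1 (0.55), Cd68 (0.11) and Spi1 (0.04) were not below WT. The summed neutrophil markers (8 of 9 measured) were 82 to 89.9 FPKM in WT and 41.8 to 66.3 in KO, mostly S100a8 and S100a9, with Ly6g, the defining marker, at 3.26 FPKM or less. Dendritic cell markers (2 of 5 measured) summed to 4.35 and 6.18 FPKM at 0 h and to 27 to 41.6 with LPS, mostly Ccr7, with Flt3 and Zbtb46 under 1 FPKM. Summed markers of T, B, erythroid, mast, stromal and endothelial cells stayed at or below 21.3 FPKM, and none of the erythroid or mast cell markers reached 1 FPKM. The part of other cells in the differences below was not tested. Fewer cells of a type and less RNA per cell cannot be told apart in these bulk libraries.

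Differences are given as a difference of log2(FPKM + 1), and a gene was called at a size of 1 or more, which is about 2-fold. The shift understates the change of genes near 1 FPKM. A trend with transcript length ran through the libraries, with a Spearman rho of 0.60 at 0 h, 0.13 at 12 h and -0.44 at 24 h across genes between the KO minus WT difference and length (7634 genes at 0 h and 7636 later, which are not independent replicates). For the KO minus WT difference of the LPS response rho was -0.52 at 12 h and -0.68 at 24 h. For 24 h against 12 h in KO it was -0.58. The members' transcripts were 927 to 5513 nt long, so each genotype difference is also given with this trend removed where that matters.

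The short sequences before the start sites of 5 members are shown because these genes mark the contrast that the data turn on, the 3 that were lower in KO at 24 h (Hif1a, Egln3, Vegfa) against 2 enzymes that reached similar levels in both genotypes (Ldha, Pgk1). Each is the 250 bases before the most upstream start listed for the gene in the RefSeq windows of GRCm38.p6, written on the gene's strand. For Hif1a and Ldha, whose annotated spans begin earlier (at bases 73901324 and 46842274), this start lies inside the gene. The bases just after the start were found in a GENCODE M21 transcript of the gene for Pgk1 only. For Hif1a, Egln3, Vegfa and Ldha they were not, so those starts rest on RefSeq alone. The letters show the hypoxia-response core in capitals. That core, ACGTG or GCGTG, was searched on both strands, so the palindrome CACGTG counts as a core on each strand.
Hif1a, chr12:73907617-73907866, plus strand: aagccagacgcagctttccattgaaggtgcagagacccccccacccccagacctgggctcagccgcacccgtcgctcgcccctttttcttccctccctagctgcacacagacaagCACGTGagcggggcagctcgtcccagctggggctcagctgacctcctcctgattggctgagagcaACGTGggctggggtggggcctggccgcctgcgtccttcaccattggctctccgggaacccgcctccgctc
Egln3, chr12:54203875-54204124, minus strand: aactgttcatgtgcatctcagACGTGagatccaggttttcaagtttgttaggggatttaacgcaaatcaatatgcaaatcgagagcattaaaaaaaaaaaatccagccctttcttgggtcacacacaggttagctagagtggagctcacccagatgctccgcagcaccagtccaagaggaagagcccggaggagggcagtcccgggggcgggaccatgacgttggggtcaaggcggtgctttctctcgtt
Vegfa, chr17:46032378-46032627, minus strand: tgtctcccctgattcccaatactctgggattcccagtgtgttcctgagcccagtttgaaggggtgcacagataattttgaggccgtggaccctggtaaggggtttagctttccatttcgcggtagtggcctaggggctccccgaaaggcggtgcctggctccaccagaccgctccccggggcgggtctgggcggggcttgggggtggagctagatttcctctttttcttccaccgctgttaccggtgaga
Ldha, chr7:46845554-46845803, plus strand: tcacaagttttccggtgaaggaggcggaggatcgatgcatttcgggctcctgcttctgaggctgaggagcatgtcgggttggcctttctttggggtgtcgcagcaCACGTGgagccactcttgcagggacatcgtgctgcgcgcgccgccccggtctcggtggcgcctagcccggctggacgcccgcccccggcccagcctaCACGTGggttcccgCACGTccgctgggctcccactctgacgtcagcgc
Pgk1, chrX:106186850-106187099, plus strand: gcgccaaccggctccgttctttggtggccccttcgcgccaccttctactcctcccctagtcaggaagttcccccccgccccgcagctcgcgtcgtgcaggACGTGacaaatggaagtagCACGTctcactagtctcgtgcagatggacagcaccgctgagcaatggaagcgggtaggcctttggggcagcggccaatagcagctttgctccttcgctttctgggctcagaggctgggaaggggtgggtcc

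Ldha held 5 cores in this window, Hif1a 3, Pgk1 2 and Egln3 1, the last beginning 229 bases before the start. The Vegfa window held 0, and another start of the same gene held 2. Over all starts, 27 of the 29 measured members with a window had a core, the exceptions being Gpi1 and Tpi1. Counted the same way, 61.7% of 9111 measured genes and 41.5% of all 27025 genes with a window had a core. Per single window the share was 38.6% of 32851. All 7 hypoxia genes with a window had one, and so did 20 of 22 enzymes and transporters. A match of 5 letters is common and is a description, not a bound site. The κB consensus, the site read by NF-κB, was found in 1 of the 29, Vegfa, against 5.43% of measured genes. Windows for Bnip3l and Ndrg1 were not used here.

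In WT, LPS went with higher levels of Slc2a1, of regulatory enzymes and of several hypoxia genes by 12 h, while the abundant enzymes of the main chain were all above their 0 h level at 12 h but reached the 2-fold rule only at 24 h, in 6 of 9 cases. Pfkfb3, the kinase that makes the activator of phosphofructokinase, had the largest difference of the members, from 4.89 FPKM to 147 and 172. At 12 h 12 of 31 members were called higher, where the background was 9.64% of all measured genes. None was called lower, against 17.4% of measured genes. At 24 h 17 were called higher, against 7.65%, and 0 lower, against 13.9%. The median of enzymes and transporters was 0.52 at 12 h and 0.97 at 24 h, and that of hypoxia genes 1.46 and 2.39. The median over all measured genes was -0.28 and -0.25, and scaling libraries by the median of ratios brought it to -0.02 and 0.00, so relative to the typical gene the members stood higher still.

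**Figure D1:**
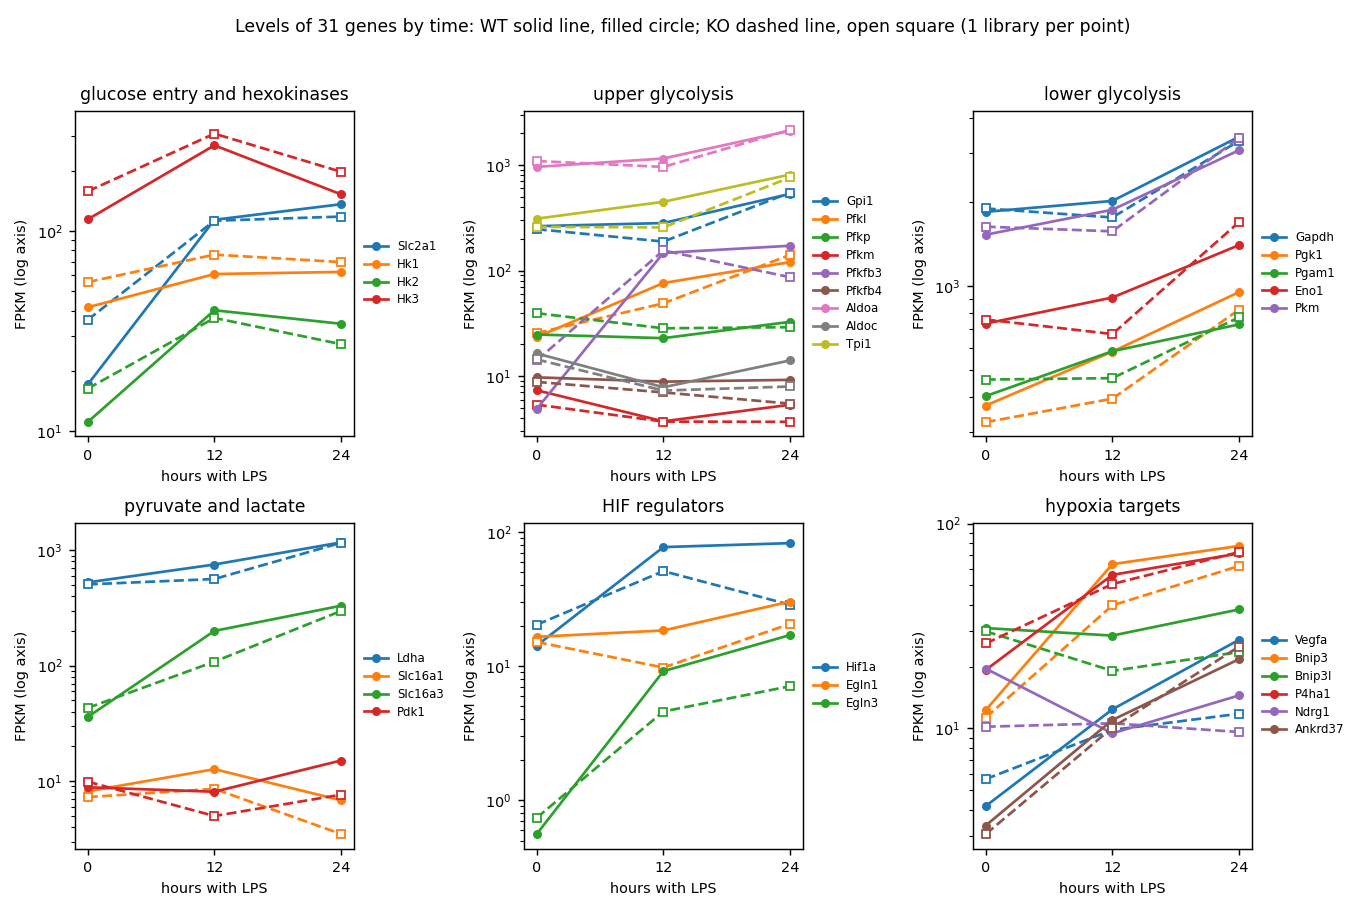
Levels of the 31 measured genes in FPKM (log axis) against hours with LPS, in 6 panels by role, with 1 library per point; WT is a solid line with filled circles and KO a dashed line with open squares. Hif1a ends at 82.3 FPKM in WT and 28.6 in KO at 24 h, while the lower glycolysis enzymes of both genotypes end close together.

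Glucose entry showed the LPS difference clearly. Slc2a1 (GLUT1, the main glucose carrier of activated macrophages; chr4:119108745-119137330) was at 17.1, 114 and 136 FPKM at 0, 12 and 24 h in WT and at 36, 113 and 118 FPKM in KO. The 2 genotypes thus began apart and met at about the same level. Among hexokinases, which trap glucose as glucose 6-phosphate, Hk2 was at 11.1, 40.2 and 34.4 FPKM in WT and 16.3, 36.8 and 27.2 in KO. Hk3, a myeloid isozyme and the most abundant of the 3 per length, peaked at 12 h in both, with 114, 269 and 153 FPKM in WT and 158, 307 and 198 in KO. Hk1 varied least, between 41.6 and 62.5 FPKM in WT and 55.6 and 76.3 in KO. All 3 hexokinases and Slc2a1 were above WT in the KO library at 0 h, by 0.41 to 1.03, and by 0.21 to 0.92 with the length trend removed. In the KO line Slc2a1 was called higher at 12 h (1.62) and 24 h (1.69), and Hk2 at 12 h (1.13).

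At the regulated step, phosphofructokinase, the isozymes differed. Pfkl, the liver-type subunit, was at 23.5, 76.3 and 120 FPKM in WT and at 25.6, 49 and 141 in KO, called higher at 24 h in both (2.31 and 2.41). Pfkp, the platelet type, kept between 22.9 and 32.7 FPKM in WT and 28.4 and 39.5 in KO. Pfkm, the muscle type, stayed at 3.69 to 7.35 FPKM over the 6 libraries. The activator kinases differed as well. Pfkfb3 in KO was at 14.1, 155 and 86.6 FPKM, so its 24 h level was below the 12 h level there (-0.83) and not in WT (0.22). Pfkfb4, a related kinase that HIF also induces, lay between 8.87 and 9.74 FPKM in WT and between 5.49 and 8.82 in KO. Aldoc, the brain-type aldolase, was lower at 12 h than at 0 h in both genotypes without reaching the 2-fold rule (-0.98 and -0.89).

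The abundant chain from glucose phosphate isomerase to lactate dehydrogenase, leaving out phosphofructokinase and Aldoc, is described as a block, called the main chain. That its genes moved alike is not an independent result, given how they were chosen. These 9 genes (Gpi1, Aldoa, Tpi1, Gapdh, Pgk1, Pgam1, Eno1, Pkm and Ldha, a group formed after their values were seen) made up 1.3%, 1.8% and 2.55% of all FPKM in WT at 0, 12 and 24 h. In KO the shares were 1.56%, 1.49% and 2.51%. Most of the gain thus lay between 12 and 24 h in both. At 12 h the median difference from 0 h was 0.31 in WT and -0.06 in KO, and in KO the signs of Gpi1, Aldoa, Tpi1, Gapdh, Eno1 and Pkm turned positive under at least 1 scaling of the libraries. Gapdh, which makes the first NADH of the chain, was at 1840, 2013 and 3416 FPKM in WT and 1892, 1757 and 3304 in KO. Pkm, pyruvate kinase, was at 1524, 1872 and 3058 FPKM in WT and 1628, 1567 and 3385 in KO. Both ranked among the 33 most abundant genes in every library. Tpi1, triose phosphate isomerase, was at 311, 449 and 813 FPKM in WT and 260, 257 and 763 in KO. Pgk1, the first ATP-yielding kinase, was at 373, 581 and 950 FPKM in WT and 325, 395 and 822 in KO.

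The other members of this block also gained more after 12 h than before it, except Pgam1 in WT (0.53 from 0 to 12 h and 0.32 from 12 to 24 h). Aldoa, the main aldolase, went from 961 to 2120 FPKM over 24 h in WT and from 1092 to 2154 in KO, and Gpi1 from 264 to 533 and from 247 to 548. Eno1, enolase, went from 733 to 1399 FPKM in WT and from 758 to 1691 in KO. Pgam1, the mutase, went from 403 to 728 and from 462 to 771, short of 2-fold in both. At 24 h against 0 h, 6 of the 9 were called higher in WT (background 7.65%) and 6 in KO (background 7.55%), or 5 in KO with the length trend removed, with medians of 1.01 and 1.15. Between 12 and 24 h their medians were 0.71 in WT, with 0 called, and 1.11 in KO, with 7 called, or 4 with the length trend removed. Over all members, 11 were called higher between 12 and 24 h in KO (background 4.78%), or 7 with the length trend removed, and 1 in WT (background 1.82%). The called member in WT was Vegfa (1.07, and 0.88 with a pseudocount of 5). In KO 1 was called lower (background 7.67%), Slc16a1 (-1.09, and -0.78 with the length trend removed), and in WT 0 (background 3.79%). Genes with near-identical copies elsewhere, such as Gapdh, Eno1, Pgk1, Pgam1 and Ldha, may share reads with them. Eno1b, a close copy of Eno1 with its own row, was at 1.34 FPKM or less.

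Handling of pyruvate and lactate followed. Ldha, which turns pyruvate into lactate, was at 526, 752 and 1169 FPKM in WT and 506, 563 and 1161 in KO. Slc16a3 (MCT4), the carrier that exports lactate from glycolytic cells, was at 36, 200.1 and 331 FPKM in WT and 43.1, 108 and 298 in KO. It lagged in KO at 12 h, with a difference from WT of -0.88, and nearly met WT at 24 h (-0.15). Slc16a1 (MCT1), the more widely expressed carrier, was at 8.17, 12.7 and 6.83 FPKM in WT and 7.28, 8.58 and 3.49 in KO. Pdk1, which holds pyruvate back from the mitochondrial dehydrogenase, was at 8.85, 8.1 and 15.1 FPKM in WT and 9.9, 4.99 and 7.64 in KO. Both were below WT in the KO libraries at 12 and 24 h, short of 2-fold.

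Of the 6 roles, HIF regulators had the lowest median KO minus WT difference at 24 h (-1.16, 3 genes). Hif1a, the alpha subunit of HIF-1 (chr12:73901324-73947554), was at 14.2, 76.9 and 82.3 FPKM in WT and at 20.3, 50.9 and 28.6 FPKM in KO. In WT it stayed up from 12 to 24 h (0.10), and in KO it was lower at 24 h than at 12 h (-0.81). Egln3, the HIF-induced hydroxylase (chr12:54178981-54203874), was at 0.56, 9.15 and 17 FPKM in WT and at 0.74, 4.58 and 7.07 in KO. Its 0 h values rest on about 32 and 42 reads by an estimate from the spacing of low values, so folds against 0 h are imprecise. Egln1, the main oxygen sensor of the family, was at 16.5, 18.4 and 30.2 FPKM in WT and 15.1, 9.74 and 20.6 in KO.

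Hypoxia targets did not move as 1 group. Vegfa, the vascular growth factor (chr17:46016993-46032377), was at 4.18, 12.4 and 27.1 FPKM in WT and at 5.66, 9.84 and 11.8 in KO. Its level in WT rose over each interval, and in KO the 24 h level was near the 12 h level (0.24). Bnip3, a mitophagy receptor, was at 12.3, 63.4 and 77.8 FPKM in WT and 11.3, 39.9 and 62.1 in KO. P4ha1, a collagen prolyl hydroxylase subunit, was at 19.3, 56.2 and 71.5 FPKM in WT and 26, 50.7 and 72.6 in KO. Ankrd37, an ankyrin repeat gene, was at 3.36, 11 and 21.8 FPKM in WT and 3.05, 10.1 and 25.1 in KO. These 3 were called higher at 24 h in both genotypes (1.44 to 2.69). Bnip3l, the relative of Bnip3, and Ndrg1, a stress-responsive gene, were not called with LPS in either. Bnip3l was at 30.9, 28.4 and 38.1 FPKM in WT and 29.8, 19.1 and 23.6 in KO. Ndrg1 was at 19.6, 9.47 and 14.5 FPKM in WT and stayed between 9.61 and 10.6 in KO.

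In KO, Pfkfb3 again had the largest difference at 12 h, and 28 of 31 members had a lower LPS difference than in WT. At 24 h 23 were lower than in WT, while Pfkl, Ankrd37, Tpi1, Eno1, Gpi1, Pkm, Ldha and Ndrg1 were not. Over all measured genes the median KO minus WT difference of the response was -0.07 at 12 h and -0.12 at 24 h. Below that median lay 27 members at 12 h and 18 at 24 h. With the length trend removed, Tpi1, Pkm, Ldha and Ankrd37 turned negative at 24 h, and Hk1, Hk3 and Pfkm turned positive. Hif1a (0.47) and Vegfa (0.94) were not called in KO at 24 h. In KO at 12 h 8 of 31 members were called higher (background 8.63%) and 0 lower (background 17.5%), all 8 of them among the 12 called in WT. At 24 h 14 were called higher (background 7.55%) and 0 lower (background 21.6%). The median of enzymes and transporters was 0.00 at 12 h and 0.89 at 24 h, against -0.36 and -0.39 over all measured genes. For hypoxia genes the medians were 0.93 and 0.94, where WT had 1.46 and 2.39. Scaling by the median of ratios moved the KO medians at 12 h to 0.40 for enzymes and 1.32 for hypoxia genes, as it moved all genes. Within a genotype the 12 and 24 h responses share the 0 h library, and each genotype has its own, so the responses carry the 0 h difference with them.

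**Figure D2:**
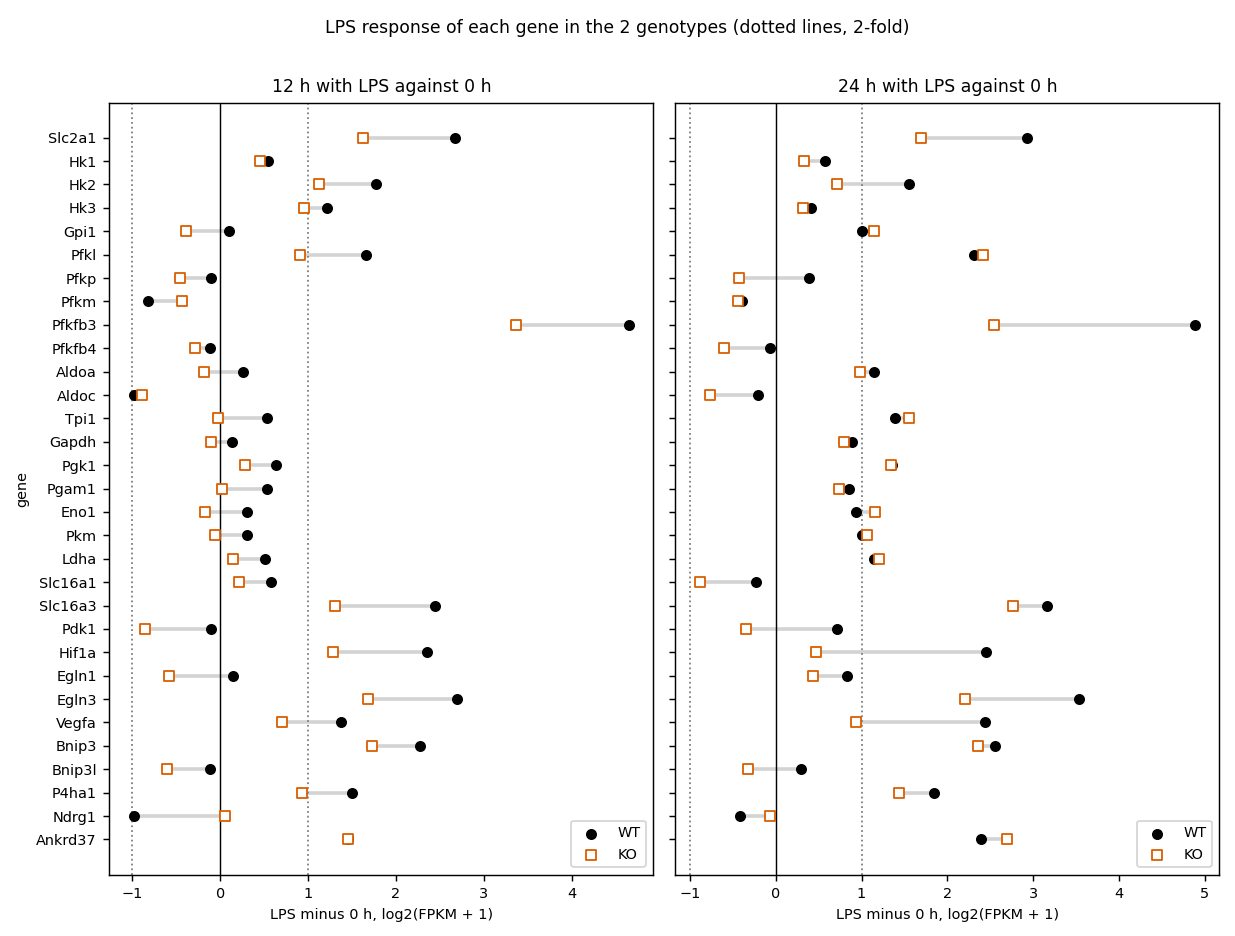
LPS minus 0 h difference of log2(FPKM + 1) for each measured gene after 12 h (left) and 24 h (right), with WT as black circles and KO as orange open squares (1 library per group and time, dotted lines at 2-fold). Pfkfb3 lies at 4.88 in WT and 2.54 in KO at 24 h, while the main chain enzymes of both genotypes overlie each other near 1; for Ankrd37 at 12 h the KO square covers the WT circle.

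Before LPS, KO and WT differed little in these genes apart from Pfkfb3 and Slc2a1. Of 31 members 2 were called higher (background 2.96%) and 0 lower (background 1.26%). Pfkfb3 was 2.88 times as high in KO (1.36, and 1.24 with the length trend removed). Slc2a1 was 2.11 times as high (1.03), and it fell short of the rule with the trend removed (0.92) or with trimmed-mean scaling (0.98). Ndrg1 was the lowest member at -0.88, with 10.2 FPKM in KO against 19.6 in WT. The medians were 0.11 for enzymes and transporters and -0.05 for hypoxia genes, against 0.02 over all measured genes. With the trend removed they were 0.16 and 0.15, so the 2 groups were nearly equal.

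At 12 h most members were below WT in the KO library, short of the 2-fold rule. None of the 31 was called, where 1.32% of measured genes were called higher and 0.727% lower. Of the 31, 26 had a negative difference, and 24 lay below the median of all measured genes, which was -0.06; the signs of Slc2a1 and Pfkm turned with the scaling of the libraries. The lowest were Slc16a3 (-0.88), Egln3 (-0.86), Egln1 (-0.85) and Tpi1 (-0.80). All 9 genes of the main chain were negative, from -0.80 to -0.20. The exceptions were Hk1 at 0.32, Pfkp at 0.30, Hk3 at 0.19, Ndrg1 at 0.14 and Pfkfb3 at 0.08. The medians were -0.28 for enzymes and transporters and -0.55 for hypoxia genes, and -0.26 and -0.55 with the length trend removed.

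At 24 h the 9 main chain genes, grouped after their values were seen, were near WT levels in KO. Hif1a and some of the genes it is known to induce were below WT. Hif1a was 2.88 times as high in WT as in KO (-1.49), Egln3 2.41 times (-1.16) and Vegfa 2.30 times (-1.14). These were the 3 members called lower (background 1.93%), and 0 were called higher (background 2.22%). With the length trend removed all 3 were called again, at -1.26, -1.13 and -1.20. Counting Hif1a, 37 of 11549 measured genes had a difference as low as its own or lower. Pfkfb3 (-0.98) and Pdk1 (-0.90) were next, short of the rule, followed by Slc16a1 (-0.80) and Aldoc (-0.75). The 9 main chain genes lay between -0.21 and 0.27, and between -0.31 and 0.21 with the trend removed. Their transcripts were shorter, with a median of 1775 nt against 2889 for the hypoxia genes. The median of hypoxia genes was -0.55 (-0.49 with the trend removed), and that of enzymes and transporters -0.12 (-0.11), against -0.12 (-0.09) over all measured genes. Ankrd37 (0.20) and P4ha1 (0.02) were not below WT, and Ankrd37 was at -0.04 with the trend removed. Of the 8 macrophage markers, Itgam, Mertk and Lyz2 were called lower in the same library, Lyz2 also at 0 h (-8.20) and 12 h (-6.72). Csf1r (-0.89) and Adgre1 (-0.81) were below WT without a call, and Fcgr1 (0.55), Cd68 (0.11) and Spi1 (0.04) were not below it. The part of these markers in the differences was not tested.

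**Figure D3:**
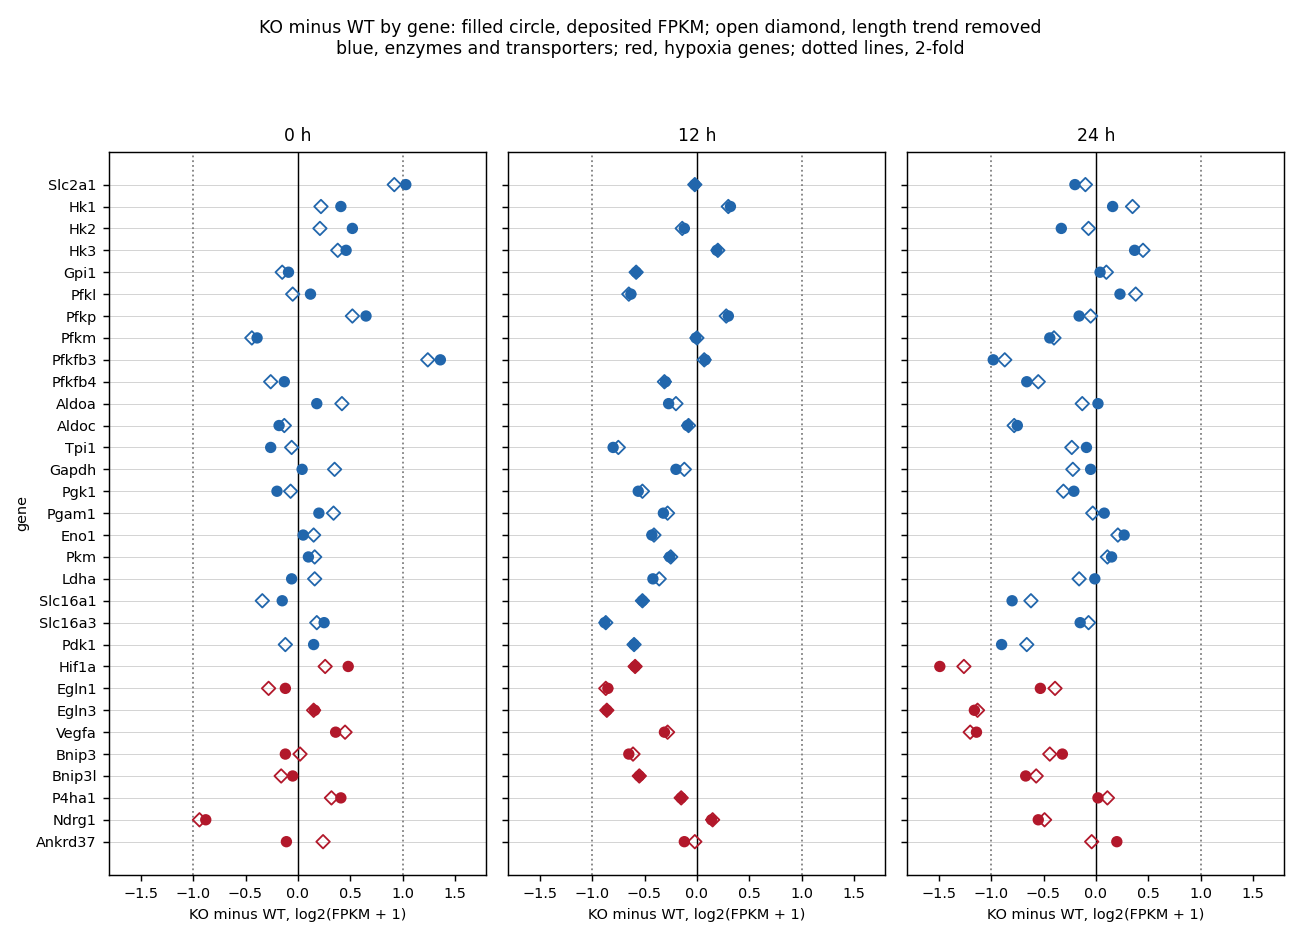
KO minus WT difference of log2(FPKM + 1) for each measured gene at 0, 12 and 24 h, with deposited values as filled circles and values with the length trend removed as open diamonds (blue, enzymes and transporters; red, hypoxia genes; dotted lines at 2-fold; 1 library per group). At 24 h Hif1a, Egln3 and Vegfa lie left of the 2-fold line by both measures and the other genes do not.

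**Figure D4:**
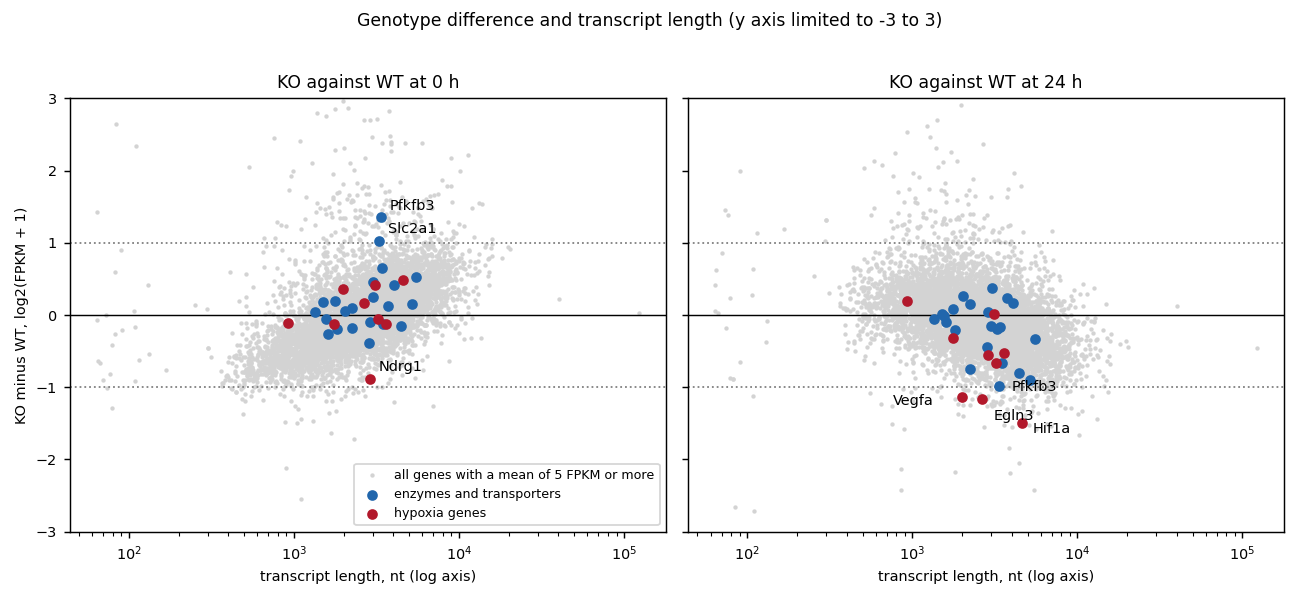
KO minus WT difference against transcript length in nt (log axis) at 0 h (left) and 24 h (right), with all genes of at least 5 FPKM on average in grey and the members in blue (enzymes and transporters) or red (hypoxia genes). The grey cloud tilts upward at 0 h (rho 0.60) and downward at 24 h (rho -0.44), and at 24 h Hif1a, Egln3 and Vegfa lie near or below the lower edge of the cloud at their lengths.

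Subtracting the WT response to LPS from that of KO gathers both ends. At 12 h 5 members were called lower (background 3.14%) and 1 higher (background 1.65%). Those lower were Pfkfb3 (-1.28), Slc16a3 (-1.13), Hif1a (-1.07), Slc2a1 (-1.05) and Egln3 (-1.02), of which Hif1a (-0.85) and Slc2a1 (-0.95) lost the call with the length trend removed. With median-of-ratios scaling 2 of the 5 were still called, and Hif1a (-0.98), Slc2a1 (-0.96) and Egln3 (-0.95) were not. At 24 h 6 were called lower (background 8.63%) and 0 higher (background 4.04%). Pfkfb3 had the largest at -2.34, followed by Hif1a (-1.98), Vegfa (-1.50), Egln3 (-1.32), Slc2a1 (-1.24) and Pdk1 (-1.04), the last at -0.54 with the trend removed. The other 5 were still called with the trend removed, with Pfkfb3 at -2.11 and Slc2a1 at -1.03. For Slc2a1 the 24 h value comes almost wholly from the 0 h libraries (1.03 at 0 h against -0.20 at 24 h). For Pfkfb3 it comes from both times, and for Hif1a, Vegfa and Egln3 mainly from their 24 h level. The 12 h values of Pfkfb3 and Slc2a1 come almost wholly from 0 h (1.36 and 1.03, against 0.08 and -0.02 at 12 h). Slc16a3 (-0.88), Egln3 (-0.86) and Hif1a (-0.59) were themselves below WT at 12 h. None of these differences was tested, since each library is alone in its group.

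Genes of the same pathways outside the 32 were read from lists chosen with earlier results known. Of 25 measured further genes of glycolysis and pyruvate use, 0 were called between genotypes at any time, with medians of -0.09, -0.03 and -0.23. The background for such calls was 0.727% to 2.96% by time and direction, so 0 calls in this list, or in the smaller ones that follow, is near the background. With LPS in WT the medians of this list were -0.61 at 12 h and -0.45 at 24 h, against -0.28 and -0.25 over all measured genes, and 2 of its genes were called higher (background 9.64%) and 7 lower (background 17.4%) at 12 h. Slc2a6, a hexose carrier of the lysosome, was one of those higher, with levels of 17.6, 194 and 76.6 FPKM in WT and 18.1, 235 and 84.3 in KO. Slc2a3 (GLUT3) was at 5.74, 2.34 and 2.22 FPKM in WT and 6.29, 2.11 and 1.8 in KO. Ldhb, the lactate dehydrogenase subunit that favours pyruvate, was at 9.02, 2.37 and 3.96 FPKM in WT and 6.12, 2.41 and 2.85 in KO. Of 8 genes of the pentose phosphate pathway, which branches off at glucose 6-phosphate to make NADPH, 0 were called between genotypes, with medians of 0.19, -0.17 and 0.12. G6pdx, its entry enzyme, was at 80.5, 126 and 159 FPKM in WT and 98.5, 98.7 and 106 in KO.

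Of 15 further measured genes of the HIF machinery, 0 were called between genotypes at 0, 12 or 24 h, with medians of -0.17, -0.03 and -0.14. Arnt, the partner of the alpha subunit, had 10.8 FPKM in WT and 9.12 in KO at 24 h. Epas1, which encodes the alpha subunit of HIF-2, was under 2 FPKM in all 6 libraries, at 1.86, 0.26 and 0.25 FPKM in WT and 1.98, 0.31 and 0.16 in KO. Ep300, a coactivator, was closest to a call, at 0.99 at 0 h and -0.95 at 24 h. With the length trend removed these values were 0.42 and -0.62. With LPS in WT 2 of the 15, Epas1 and Cited2, were called lower at 12 h (background 17.4%) and again at 24 h (background 13.9%). In KO it was 1 at 12 h, Epas1 (background 17.5%), and 3 at 24 h, Epas1, Ep300 and Cited2 (background 21.6%). These counts are near or below the background, and 0 were called higher (background 7.55% to 9.64%).

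Further hypoxia targets outside the 32 included both higher and lower values in KO at 24 h. Of 22 measured, 2 were called higher in KO (background 2.22%) and 0 lower (background 1.93%), with a median of -0.29. Those higher were Hilpda, an inhibitor of triglyceride lipase (14.9 FPKM in WT and 41.3 in KO, 1.41), and Plin2, a lipid droplet coat protein (297 and 763 FPKM, 1.36). Mxi1, a MYC antagonist, was the lowest at -0.85, with 8.7 and 4.4 FPKM. Hmox1, which degrades heme, was called higher in KO at 0 h (1.41). At 12 h Fam162a, a mitochondrial protein, was called lower (-1.01, and -0.89 with the length trend removed). After 12 h of LPS 9 of the 22 were called higher in WT (background 9.64%) and 7 in KO (background 8.63%), and after 24 h the numbers were 12 (background 7.65%) and 10 (background 7.55%). In KO 1 was called lower at each time (background 17.5% at 12 h and 21.6% at 24 h). These were Tfrc, the transferrin receptor, at 12 h and Bhlhe40, a transcriptional repressor, at 24 h. In WT 0 were called lower (background 17.4% and 13.9%).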

How the data were processed

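RNA was measured in 6 libraries, 1 for each genotype and time. The authors' deposited table gives FPKM per gene with 2 decimals; per the submitters' processing notes it was made with Bowtie2 and RSEM on GRCm38, and versions and settings are not given in the sources used here. No counts were used. The spacing of low values fitted 21760000 to 22440000 mapped reads per library for an assumed read length of 50; this is an estimate. Of 17905 rows, 1 without a name was left out, and 2 cells that are not numbers were read as missing. Depth and 1 library per group limit the precision.

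Genes with at least 1 FPKM in any library (11549) were compared as differences of log2(FPKM + 1) and called at a size of 1, without a test. Transcript lengths came from GENCODE M21 by RefSeq accession (99% of measured genes). For the length correction, each library's log2 ratio to the average library was smoothed against length by local regression (span 0.3), using genes that averaged 10 FPKM or more, and the smoothed value was subtracted. Coordinates and start-site windows are RefSeq's for GRCm38.p6. Alternatives were pseudocounts of 0.1 and 5, no minimum or a minimum of 5 FPKM, 2 scalings and the length correction. All measured members were named; of other lists, called genes and up to 4 with the largest differences. Members and lists were chosen with earlier results of these data known. The code was tested on simulated data. Python 3.11.15, numpy 2.4.6 and pandas 2.3.3 were used.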

Additional observations from a re-analysis of the deposited data

Results flagged for a closer look

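For 2 members the LPS response had opposite signs in the genotypes and differed by 2-fold or more. Ndrg1 at 12 h was at -0.98 in WT and 0.05 in KO, a difference of 1.02. Pdk1 at 24 h was at 0.71 in WT and -0.34 in KO, a difference of -1.04. With 1 library per group neither difference was tested. With the length trend removed the Pdk1 difference was -0.54.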

How the results depend on the processing

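With 1 library per group no library could be left out. No paired analysis was possible because each genotype has 1 sample per time and all carry the same number. Counts of calls moved by more than 1.5 times as follows. Members called higher in KO at 0 h numbered 0 with a pseudocount of 5, and 1 with trimmed-mean scaling or the length trend removed. Members called lower at 24 h numbered 1 (Hif1a) with a pseudocount of 5. Members called higher with LPS in KO at 12 h numbered 5 with a pseudocount of 5. Calls lower with LPS numbered 2 in WT at 12 h and 1 in KO at 24 h with a pseudocount of 0.1, and 1 in WT at 12 h with the length trend removed. Between 12 and 24 h, calls higher in KO numbered 7 with the length trend removed, calls lower in KO 0 with that or a pseudocount of 5, and calls higher in WT 0 with a pseudocount of 5. For the KO minus WT difference of the 12 h response, calls lower numbered 1 with a pseudocount of 5, 2 with either scaling and 3 with the length trend removed, and calls higher 0 with a pseudocount of 5. Medians that changed sign were those of hypoxia genes at 0 h (0.15 with the length trend removed), of enzymes at 24 h (0.03 with either scaling), of enzymes in the difference of the 24 h response (0.04 and 0.06 with the scalings), and of enzymes with LPS in KO at 12 h (0.40 with median-of-ratios and 0.42 with trimmed-mean scaling). Medians that crossed the rule were those of enzymes with LPS at 24 h (1.28 with either scaling and 1.01 with the length trend removed in WT; 1.37 and 1.40 with the scalings in KO), of hypoxia genes with LPS in WT at 12 h (0.94 with a pseudocount of 5), and of hypoxia genes with LPS in KO (1.32 and 1.34 at 12 h and 1.36 and 1.39 at 24 h with the scalings, and 1.04 at 24 h with a pseudocount of 0.1). No called member difference reversed under these alternatives. Either scaling moved the 24 h KO minus WT median of all measured genes from -0.12 to 0.00. The minimum FPKM changed no call.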
